A study of Sinohyriopsis cumingii with 10 samples.

Results

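The late pearl sac, sampled 14 and 30 d after implantation, was set against the first hours of the same experiment, sampled at 0, 2 and 6 h. These are 5 of the 10 libraries of a time course in the freshwater pearl mussel Sinohyriopsis (Hyriopsis) cumingii, 2 late and 3 start libraries, chosen by their labelled time. All mussels were 2 years old and of similar size, and all libraries are labelled pearl sac. Each time has 1 library, and the labels do not say whether it came from 1 mussel or from several, or which tissue was taken at 0 h. Neighbouring times therefore stand in for replicates of a phase. The spread within a phase holds change over time, differences between animals and differences between libraries together, and a p-value measures a difference against that mixed spread.

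A pearl sac is an epithelial pouch. It grows out from a piece of donor mantle grafted into a host mussel, closes around the graft site, and then secretes the proteins and minerals of nacre as the outer mantle epithelium does for the shell. The graft is also a wound with foreign tissue in it, and circulating blood cells called hemocytes gather there early on, while the secreting epithelium takes time to form. The question here was which differences from the start remained at the end of the course. In bulk tissue, a smaller share of cells of a type and less RNA per cell cannot be told apart.

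Transcripts are contigs, assembled pieces of transcripts, listed by number. The files pair no contig with a gene name or a sequence, so results are given for groups of contigs and at most 2 contigs are named in each direction. Several contigs can belong to 1 gene. The 5 libraries held 21241000 to 22675098 reads in the 211508 contigs that could be read in every file, and 46882 contigs had enough reads to be tested. Levels are CPM (reads scaled to a common total), scaled with TMM factors, which align the libraries on the bulk of contigs, unless total-count scaling is named. The factors were 0.875, 0.862 and 0.728 in the start libraries in order of time, and 1.48 and 1.23 in the late ones. Start and late libraries thus lay on opposite sides, and the median contig had a fitted late-to-start difference of 0.005 on the log2 scale with TMM and of 0.725 with total counts. Changes under total counts are to be read against that shift.

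Under TMM the late libraries were about as far from 0 h as 2 and 6 h were, and as they were from each other. Counting contigs at least 4-fold apart between 2 libraries, with 1 CPM added to both sides, 0 h differed from 14 d at 940 contigs and from 30 d at 962. From 2 h it differed at 841 and from 6 h at 880, and the late libraries differed from each other at 1136. The 2 and 6 h libraries differed from each other at 270 contigs and lay farther from the late ones, 2 h at 2039 contigs from 14 d and 1547 from 30 d, and 6 h at 1531 and 1532. With total counts, 0 h differed at 1422 contigs from 14 d and at 1289 from 30 d, against 726 from 2 h and 651 from 6 h, while 14 and 30 d differed from each other at 1264. The late libraries were then farther from 0 h than the other start libraries were.

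Spearman's correlation over the 46882 contigs, which does not depend on the scaling, also placed 0 h near the late libraries. The 0 h library had 0.817 with 14 d and 0.811 with 30 d, against 0.75 with 2 h and 0.809 with 6 h, and the late pair had 0.803. The lowest value of the 10 pairs was 0.664, between 2 h and 14 d. The mean of the 6 late-start pairs was 0.753 ± 0.057 (SD over pairs that share libraries), and that of the 3 pairs within the start was 0.798. Among the 1000 contigs that varied most over the 5 libraries the late-start mean was 0.473, with 0.748 within the start and 0.579 between the late libraries. At a mean of at least 5 CPM it was 0.69, with 0.8 within the start and 0.691 between the late libraries. Outside the 5 libraries, 14 d had 0.81 with 7 d, and 0 h had 0.771 with 96 h and 0.764 with 7 d. These correlations are across contigs, which are not independent, and carry no test.

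**Figure D1:**
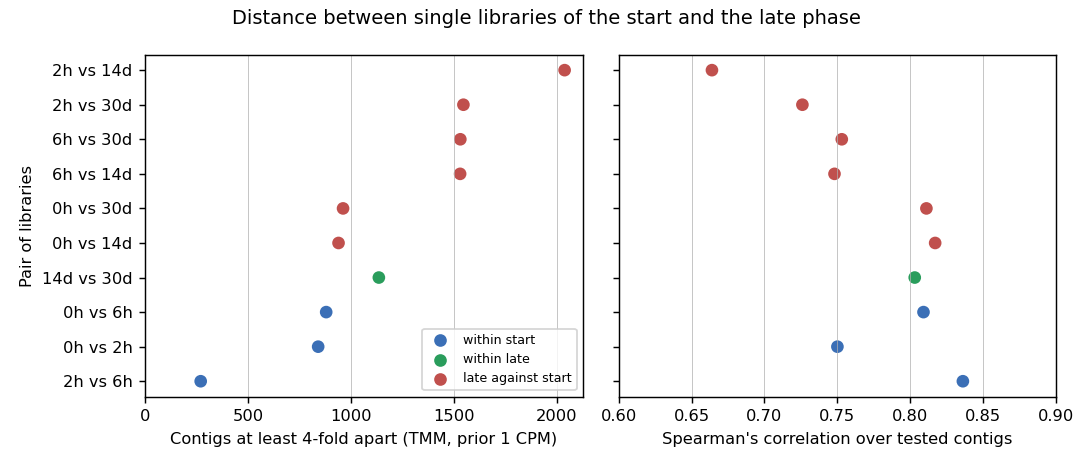
Each row is a pair of the 5 libraries. The left panel gives the number of contigs at least 4-fold apart (TMM, 1 CPM added) and the right panel Spearman's correlation over the 46882 tested contigs, with pairs within the start in blue, the late pair in green and late-start pairs in red. Pairs of 0 h with 14 or 30 d (940 and 962 contigs) lie among the pairs within a phase other than that of 2 and 6 h (841 to 1136, against 270), and pairs of 2 or 6 h with the late libraries (1531 to 2039) lie apart.

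Against the spread within the phases, 4 contigs passed the test of late against start, and all 4 were higher late. With edgeR's quasi-likelihood test and p-values adjusted by Benjamini-Hochberg over the 46882 contigs, those with an adjusted p under 0.05 that were higher late made up 0.00853%, and those lower late numbered 0 (0.0%). At an unadjusted p under 0.05 there were 5609 contigs (12.0%), of which 2993 (6.38%) were higher late and 2616 (5.58%) lower. DESeq2's Wald test called 1460 contigs, 582 higher and 878 lower late, with the same 4 among them, and limma-voom called 0, with 3947 at an unadjusted p under 0.05. With total-count scaling edgeR called 515, of which 503 (97.67%) were higher late. The 4 calls ended when any 1 start library was left out, and without 14 d 920 contigs were called and without 30 d 343, in both cases with the same 4 among them. With all 10 libraries in the fit 4 contigs were called, of which 1 was among these.

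The called contigs of highest level were a pair, contig100323 (690 bases) and contig175920 (641 bases). Both were near 0 at the start and among the most abundant contigs of the late sac. contig100323 stood at 0.712, 0.0531 and 0.320 CPM at 0, 2 and 6 h, and at 1407 CPM at 14 d and 748 at 30 d. The late libraries lay far above all start libraries, the lower late level being 1050 times the highest start level. Its means were 0.362 ± 0.331 CPM at the start (SD, n = 3) and 1078 ± 466 late (SD, n = 2), with a fitted log2 fold change of 11.51 ± 0.98 (SE derived from the F statistic; edgeR adjusted p = 0.0357).

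contig175920 stood at 0.305, 0 and 0.384 CPM at 0, 2 and 6 h, and at 894 CPM at 14 d and 421 at 30 d. Again both late libraries were far above the start, with 1098 times between the lower late and the highest start level, and 14 d was the higher of the late libraries. Its fitted log2 fold change was 11.47 ± 1.08 (edgeR adjusted p = 0.0404). The fitted values rest on few start reads, 14, 1 and 5 for contig100323 and 6, 0 and 6 for contig175920, so their size is less certain than their direction.

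Between the compared phases the pair appeared together. contig100323 was at 0.0908, 0.712 and 0.836 CPM at 12, 24 and 48 h, and had reached 46.7 CPM at 96 h and 191.1 CPM at 7 d. contig175920 was at 0, 0.237 and 0.358 CPM at the same 3 times, and had reached 26.2 CPM at 96 h and 97.7 CPM at 7 d. Both thus lay far above their start level from 96 h on, in libraries the test did not use, and were highest at 14 d. At 48 h contig100323 already lay above every start library under both scalings (1.33 CPM against at most 0.623 with total counts). contig175920 did so with total counts only, at 0.569 CPM against at most 0.279. These 48 h levels rest on 28 and 12 reads. Per length, in the authors' RPKM (reads divided by the contig's length and the library's total), contig100323 reached 2966 at 14 d, rank 50 of all contigs, and 1301 at 30 d, rank 121. contig175920 reached 2029 RPKM, rank 82, and 789 RPKM, rank 194. The RPKM ratio of the first to the second was 2.17 at 48 h, on few reads, 1.66 and 1.82 at 96 h and 7 d, and 1.46 and 1.65 in the late libraries. Whether they are pieces of 1 transcript cannot be told from the files.

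The other two called contigs were of low level. A contig of 1433 bases had 3, 3 and 2 reads at 0, 2 and 6 h and 412 and 265 reads at 14 and 30 d, with a fitted log2 fold change of 6.26 ± 0.54 (edgeR adjusted p = 0.0357). It had 11, 68, 74, 290 and 121 reads in the 5 libraries from 12 h to 7 d, all above its start libraries. A contig of 1971 bases had 2, 2 and 1 reads at the start and 233 and 203 reads late, with a log2 fold change of 6.29 ± 0.59 (edgeR adjusted p = 0.0392). In the 5 libraries from 12 h to 7 d it had 3, 0, 0, 0 and 1 reads, so that a level above a few reads was seen at 14 and 30 d and in none of the other 8 libraries.

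Among contigs lower late that averaged 10 CPM or more, the pair with the lowest p did not pass the test. contig066796 (505 bases) stood at 31.2, 36.5 and 21.8 CPM at 0, 2 and 6 h and at 2.46 and 2.12 CPM at 14 and 30 d. The groups did not overlap, with 8.88 times between the lowest start and the higher late level and 4.36 times with total counts. Its fitted log2 fold change was -3.70 ± 0.49 (edgeR adjusted p = 0.143, and adjusted p = 0.0425 with total counts). In the libraries between, it was at 71.3 CPM at 12 h and at 0.0396 CPM at 24 h, which was 1 read against 1570. It then stood at 2.69, 2.32 and 3.85 CPM in the 3 libraries from 48 h to 7 d, near its late level.

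contig005729 (273 bases) stood at 30.3, 33.9 and 52.9 CPM at the start and at 6.08 and 4.07 CPM late. The groups did not overlap, with 4.98 times between them, and 2.94 times with total counts. Its fitted log2 fold change was -2.94 ± 0.49 (edgeR adjusted p = 0.225). In between it was uneven, at 11.9, 7.72, 8.24, 26.9 and 3.72 CPM in the 5 libraries from 12 h to 7 d.

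**Figure D2:**
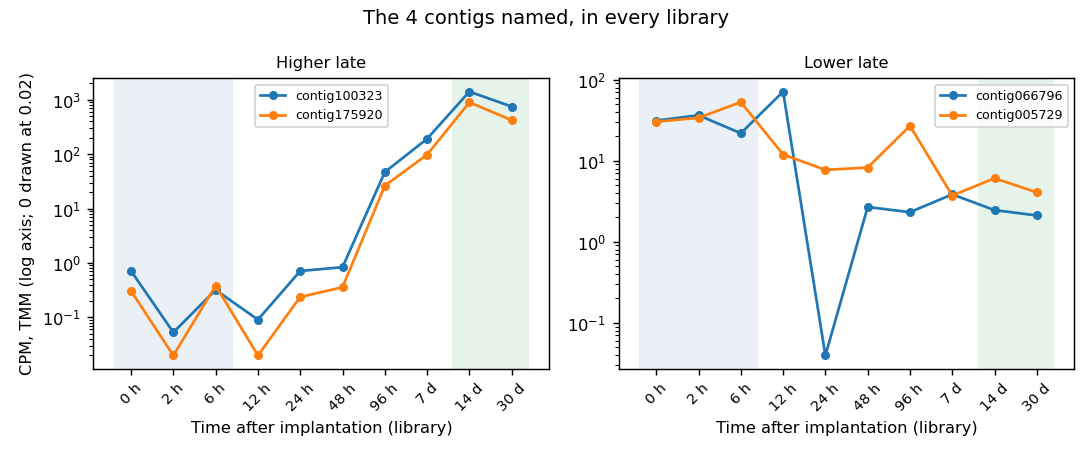
CPM of the 4 named contigs in all 10 libraries (TMM, log axis, 0 drawn at 0.02), with the start libraries shaded blue and the late libraries green. contig100323 and contig175920 lie far above the start from 96 h on and at 1407 and 894 CPM at 14 d. In the late libraries contig066796 and contig005729 lie at 2.12 to 6.08 CPM.

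Beyond single contigs, the side on which the late libraries lay differed with a contig's mean level over the 5 libraries and with the scaling. Under TMM, both late libraries were above all 3 start libraries at 6859 contigs (14.6% of those tested) and below all 3 at 5380 (11.5%). With total counts the numbers were 18920 (40.4%) and 1509 (3.22%). TMM factors were below 1 in every start library and above 1 in every late one. A contig higher late under TMM is therefore also higher with total counts. Likewise, a contig lower late with total counts is also lower under TMM. The 6859 and the 1509 kept their side by this arithmetic, while the rest of the 18920 and of the 5380 did not. Of the 10 ways to split the 5 libraries, 1 puts both late ones highest and 1 puts them lowest. An order at random would thus give about 1 contig in 10 on each side, near the TMM shares. Contigs on 1 side without overlap are a description, not calls.

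The most abundant contigs held a smaller share of the reads late, and more of them lay below the start than above it. Of the 142 contigs that averaged 1000 CPM or more over the 5 libraries, 82 were lower in both late libraries than at every start time and 2 were higher under TMM, and 52 were lower and 20 higher with total counts. Their median late-to-start difference was -0.85 on the log2 scale with TMM, with quartiles of -2.02 and -0.06, and -0.16 with total counts, with quartiles of -1.39 and 0.68. Together they held 58.5%, 56.6% and 59.6% of all reads at 0, 2 and 6 h, and 36.6% at 14 d and 44.4% at 30 d. These shares do not depend on the scaling, and the groups did not overlap. The class was, however, drawn from the compared values, by a mean that holds more start than late libraries. A contig abundant only at the start thus enters it more easily than a contig equally abundant only late. This choice favours lower late levels and shares in the class, and how much of the difference it accounts for was not tested.

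Less abundant contigs, classed by the same mean, held a larger share late. Contigs with a mean of 10 to 100 CPM, 5177 in number, held 11.5% to 12.9% of the reads in the start libraries, 19.7% at 14 d and 16.5% at 30 d. Those of 1 to 10 CPM, 22485 in number, held 4.87% to 6.10% at the start, 9.73% at 14 d and 8.43% at 30 d. In both classes the median contig differed from the start by -0.06 and 0.03 on the log2 scale under TMM, and by 0.64 and 0.53 with total counts. The shares of a library add up to its total, so that a lower share in 1 class raises the others, and RNA per cell was not measured.

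**Figure D3:**
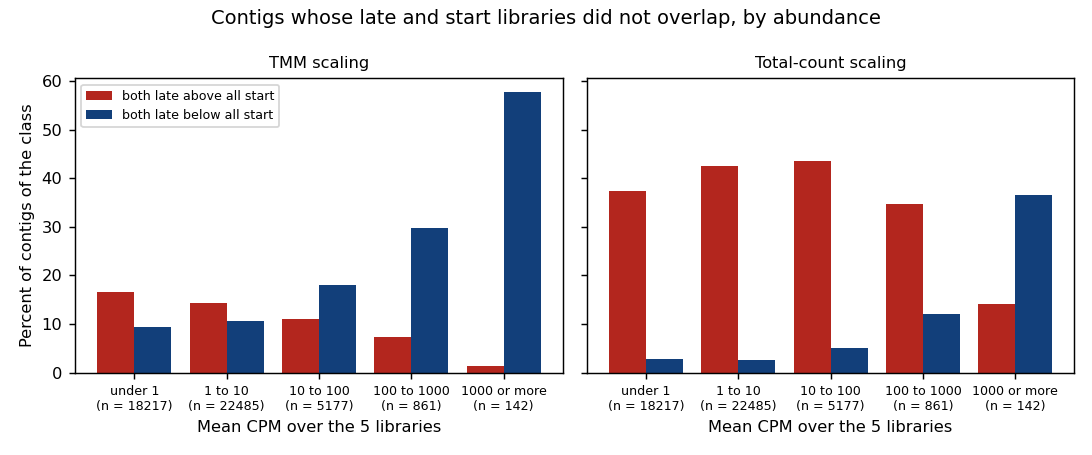
Percent of contigs in each class of mean CPM over the 5 libraries whose late libraries both lay above (red) or below (blue) all start libraries, under TMM (left panel) or total counts (right panel). Among contigs of the class of 1000 CPM or more, 57.7% lay below under TMM and 36.6% with total counts. Of contigs under 1 CPM, 16.5% lay above under TMM and 37.3% with total counts. An order at random would put about 1 contig in 10 on each side. The classes were drawn from the compared values, with more start than late libraries in the mean. Within a class this share is therefore no exact baseline.

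Reads were also spread over more contigs late. The number of contigs that held 50% of the reads was 70, 77 and 64 at 0, 2 and 6 h, and 248 at 14 d and 171 at 30 d. The means were 70.3 ± 6.51 (SD, n = 3) and 209.5 ± 54.4 (SD, n = 2), higher in both late libraries, and a two-sided exact permutation test gave p = 0.2, the smallest that 2 against 3 libraries allow in it. Contigs with at least 1 read numbered 128574, 135774 and 133918 at the start and 158877 and 147461 late. With every library thinned to 21241000 reads the late mean was higher than that of the start by 21548 contigs (exact permutation p = 0.2).

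To see which differences were large whatever the scaling, contigs were taken whose late libraries both lay at least 2-fold beyond every start library under TMM and under total counts, with 1 CPM added to each value. There were 158 of these higher late (0.337% of the tested) and 81 lower late (0.173%). Given the factors, TMM is the stricter scaling for higher contigs and total counts for lower ones. Each list is thus set by its stricter scaling, and the other scaling removes no contig from it. With TMM alone the lower ones numbered 352 (0.751%), and with total counts alone the higher ones 710 (1.51%). At 4-fold there were 25 higher late (0.0533%) and 4 lower late (0.00853%), with 21 lower under TMM alone (0.0448%) and 62 higher with total counts alone (0.132%). The gap of the last of the 25 was 2.03 on the log2 scale and that of the next contig outside 2.00. Without 14 d the 25 became 503 and without 30 d 139, without 6 h 38, and the 4 became 87 without 0 h, 13 without 6 h, 8 without 14 d and 180 without 30 d. Since the late-start gap chose these contigs, their start and late values describe them and test nothing.

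The higher and the lower contigs differed in level, which the rule sets in part. With 1 CPM added, a lower contig needs at least 1 CPM in every start library, while a higher one can start without reads. The 158 higher ones were scarce at the start, with medians of 0.966, 0.796 and 1.09 CPM at 0, 2 and 6 h, and reached 7.73 CPM at 14 d and 12.9 at 30 d. Their sum with total counts was 943 to 1231 CPM in the start libraries, 12861 at 14 d and 15926 at 30 d. The 81 lower ones were abundant, with medians of 47.5, 54.4 and 52.9 CPM at the start and of 2.87 and 8.81 CPM at 14 and 30 d. They summed to 59392 to 76867 CPM at the start, 7173 at 14 d and 22897 at 30 d. The median length was 1391.5 bases for the higher, 1414 for the lower and 1251 for all tested contigs.

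**Figure D4:**
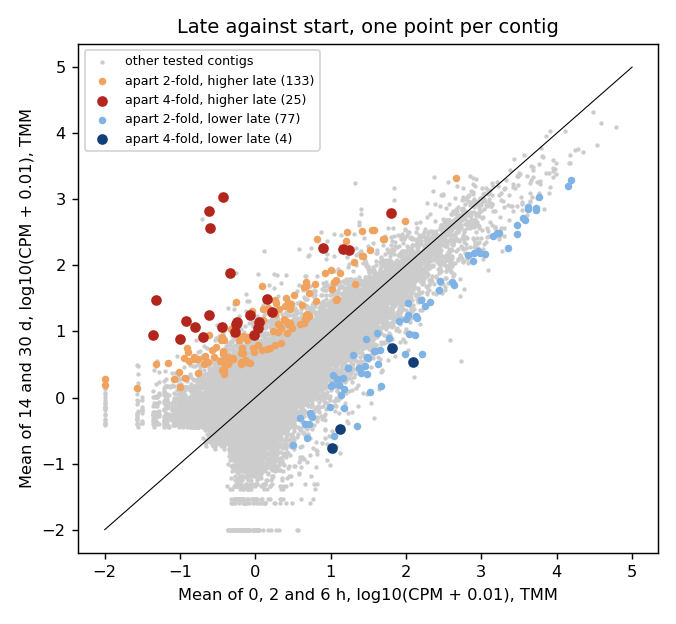
Each point is a tested contig, with its mean over 0, 2 and 6 h on the horizontal and over 14 and 30 d on the vertical axis, both as log10(CPM + 0.01) under TMM. Red and orange mark the contigs apart 4-fold (25) and 2 to 4-fold (133) and higher late, and blue those lower late (4 and 77). The median start level of the higher contigs is 0.796 to 1.09 CPM and that of the lower ones 47.5 to 54.4 CPM. No lower contig is under 2.28 CPM in a start library, where the rule itself asks for at least 1 CPM.

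Within the 25 contigs apart 4-fold and higher late, the courses between start and end differed. The contigs described here were picked after their values were seen. Of the 25, 4 were called. Those of 533, 3384, 1082 and 836 bases, described below, were not (edgeR adjusted p = 0.225, 0.143, 0.171 and 0.229). The first 2 by size of gap are the named pair. A contig of 533 bases was at 0 to 0.407 CPM at the start, 31.0 at 14 d and 694 at 30 d, and at most 1.86 between 12 h and 7 d. In 3 of the 25 a library between 12 h and 7 d reached at least the lower late level, against 38148 of the 46882 tested contigs. The rule asks for high late levels in the 25 and so favours a low count there, and the comparison tests nothing. The longest of the 3, of 3384 bases, stood at 9.26, 4.51 and 9.79 CPM at the start. It reached 360 CPM at 7 d, and stood at 270.3 and 89.9 CPM in the late libraries. Its late levels thus lay above the start and below its 7 d level.

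Other contigs were lower mid-course than at the start and higher late. A contig of 1082 bases stood at 15.6, 7.22 and 20.4 CPM at 0, 2 and 6 h, at 1.07 and 1.19 CPM at 24 and 48 h, and, after 24.2 CPM at 7 d, at 139.1 and 213 CPM in the late libraries. A contig of 836 bases was at 63.4, 9.98 and 115.5 CPM at the start, had 0.388 CPM at 48 h and 167 CPM at 7 d, and stood at 709 and 514 CPM in the late libraries. In 14 of the 25, at least 1 library from 12 h to 7 d lay below every start library, which held for 24948 of the 46882 tested contigs. In 3 of the 25 no library from 12 h to 7 d exceeded the start, against 21782 of the tested contigs. The rule also asks for start levels below the late ones, so these counts beside the tested contigs describe the 25 and test nothing. Of the 25, 13 were higher at 30 d than at 14 d, about the share among the tested contigs (24604 of 46882).

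The libraries of 12 h to 7 d, which did not enter the choice, show when the levels moved apart. The median of the 158 higher contigs lay near its start level up to 96 h under TMM, with 1.09, 0.831, 0.716 and 1.11 CPM in the 4 libraries from 12 to 96 h, and 2.01 CPM at 7 d. With total counts the median was 1.18, 0.887, 1.14 and 1.60 CPM at 12, 24, 48 and 96 h, against 0.686 to 0.846 at the start. The median of all tested contigs was also higher under that scaling. It was 1.53, 1.39, 1.99 and 1.75 CPM at these times, against 0.931 to 1.19 at the start. Some members were above the start sooner, and the sum over the 158 with total counts was 2158, 2898, 4028, 6295 and 6490 CPM in the libraries from 12 h to 7 d. This sum is weighted by its most abundant members. Under TMM the highest single contig stood at 1245 CPM at 24 h and at 1840 CPM at 96 h. Under TMM, their highest library was 30 d for 95 contigs and 14 d for 46, and one of the libraries of 12 h to 7 d for the other 17. The 81 lower contigs had medians that were lower at each later time up to 14 d, with 27.3, 16.5, 6.75, 5.81 and 3.62 CPM in the 5 libraries from 12 h to 7 d. Under TMM, 75 of the 81 were higher at 30 d than at 14 d, by a median of 1.16 on the log2 scale, while the median tested contig differed by 0.03. Among these 75 of 81 contigs the 30 d library was thus the nearer of the late libraries to the start.

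For contrast, contigs were taken by the middle of the course alone. In 88 contigs all 5 libraries of 12 h to 7 d lay at least 2-fold above every start library under both scalings, and in 44 all lay at least 2-fold below. These lists share the start libraries with the late comparison, so only levels are given, with no test. The choice also set the 12 h to 7 d levels away from the start and left the late levels free. It thus favours late levels nearer to the start than those of 12 h to 7 d, and by how much was not tested. The 88 had medians of 3.20, 5.41 and 4.86 CPM at the start, of 34.5 and 22.9 CPM at 24 h and 7 d, and of 12.3 and 5.15 CPM in the late libraries. The 44 had medians of 12.6, 10.3 and 9.21 CPM at the start, of 0.358 and 0.503 CPM at 48 h and 7 d, and of 1.40 and 5.23 CPM in the late libraries. The 30 d median of the 88 lay within the range of their start medians under TMM and above all of them with total counts, at 6.33 CPM against 2.80, 4.67 and 3.54. That of the 44 lay below their lowest start median under both scalings.

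**Figure D5:**
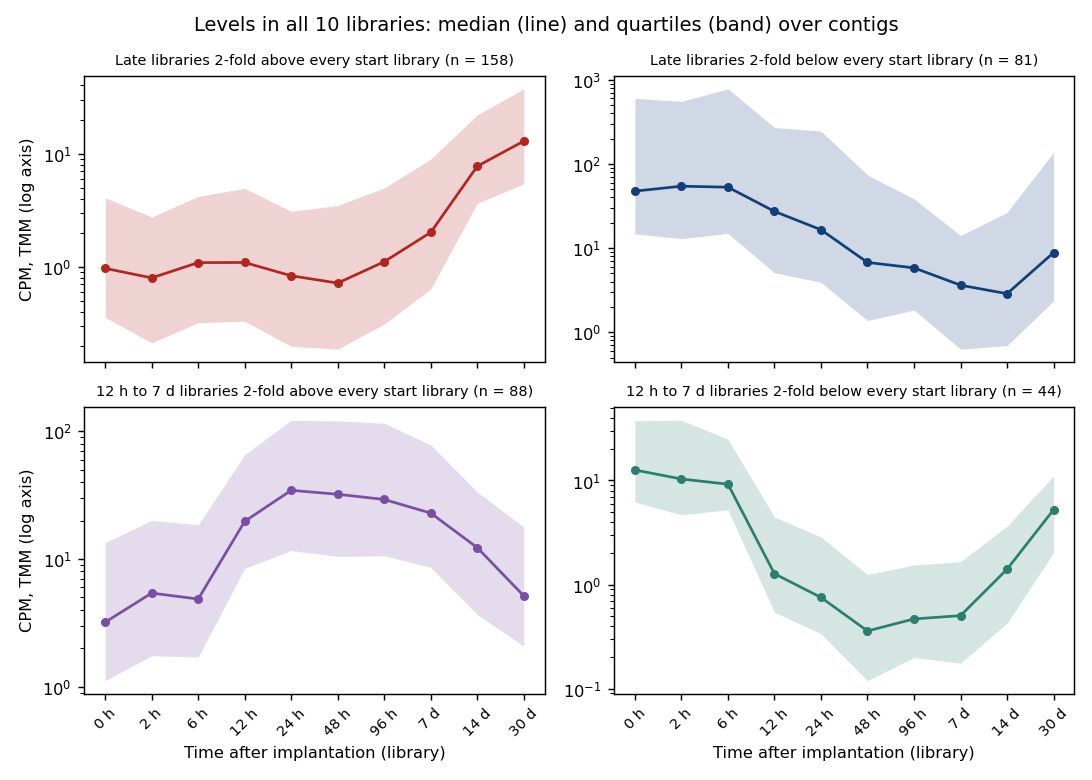
Median (line) and quartiles (band) of CPM over contigs in each of the 10 libraries (TMM, log axes), for contigs whose late libraries lay 2-fold above (158) or below (81) every start library, and for contigs whose 12 h to 7 d libraries did (88 and 44). The late-high medians lie near 1 CPM up to 96 h and at 12.9 CPM at 30 d, and the late-low medians lie lower from 12 h on. The medians of both mid-course groups lie nearer to the start at 30 d than at 7 d. Their choice, which set 7 d but not 30 d away from the start, favours this.

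Presence and absence, which need no scaling, gave few contigs. At 0 reads in all 3 start libraries and at least 10 reads in both late ones were 24 of 211508 contigs (0.0113%), with a median of 17 reads at 14 d and 24 at 30 d and at most 69. A count of 0 allows up to 3 reads, 0.132 to 0.138 CPM in the start libraries, so absence at the start is not shown. Between 12 h and 7 d, 23 of the 24 had at least 1 read, and 7 had 10 or more in some library. The opposite, at least 10 reads in all 3 start libraries and 0 in both late ones, was met by 1 contig (0.000473%), which asks for reads in 1 library more. This contig of 1999 bases had 12, 19 and 18 reads at the start, then 21, 10 and 1 at 12, 24 and 48 h, and 0 from 96 h on. Leaving out 1 library gave 42 to 492 contigs in place of the 24, the most (492) without 14 d. A minimum of 5 reads gave 155 contigs. The highest of the 155 at 30 d had 87195 reads there, with fewer than 10 at 14 d, so not all stayed faint late.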

How the data were processed

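Each deposited file gives, per the file headers, reads and RPKM for each contig of an assembled transcriptome. The reads of the authors' deposited files were treated as estimated counts. The values are whole numbers except 0.5, which stands only where RPKM is 0 and was read as 0 reads, and nothing else was rounded. The authors' RPKM are reads divided by the contig's length and the library's total. Not given in the sources used here are the assembler, the aligner and the counting program. Per the labels' protocols, libraries were made from mRNA with random primers and PCR, without a molecular identifier or strand mark. The floor allowed for a contig without reads thus covers counting error only, and antisense transcripts cannot be told apart. The SDs and SEs rest on differences between libraries and are not limited to counting error.

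In the 30 d file 1 line is unreadable in place of 166 contigs, which were left out of every library. Contigs were filtered with edgeR's filterByExpr (edgeR 4.0.16, R 4.3.3), scaled with TMM factors and tested on the 5 libraries, late against start, with the quasi-likelihood F test. An adjusted p (Benjamini-Hochberg) under 0.05 was called. No replicates of a time exist, so 3 residual degrees of freedom come from neighbouring times. Levels at 12 h to 7 d were put on the same scale through TMM factors of all 10 libraries. On simulated counts of 46882 contigs, changes were set only in contigs averaging above 1 CPM. This comparison called 5 of 64 changes of 4-fold (7.81%), 53 of 70 of 16-fold (75.7%) and 64 of 66 of 64-fold (97.0%). Beside these were 15 false calls, a larger share of the calls than the threshold of 0.05 aims for. Named contigs were the called ones with a mean of at least 10 CPM, no overlap under both scalings and the lowest p, up to 2 in each direction, or, where none was called, those of lowest p. Alternatives were total-count scaling, DESeq2 1.42.0 (size factors and Wald test), limma 3.58.1, other filters, all 10 libraries in 4 phases, and leaving out each library. The comparison and its lists were chosen with earlier results of these data known, and the lists of contigs apart 2-fold or 4-fold and their alternatives after seeing the data.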

Additional observations from a re-analysis of the deposited data

Results flagged for a closer look

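One signal lay in data that the comparison did not use. The 166 contigs that cannot be read in the 30 d file summed to 979.6 CPM (total counts) at 14 d, against 540.8, 364.2 and 444.4 CPM at 0, 2 and 6 h. At 30 d the same contigs held 1054 CPM by the library total that the RPKM values give, so both late libraries lay above all start libraries. A single contig held 455 CPM at 14 d and 311, 192 and 284 CPM at the start, and without it the sums were 525 CPM at 14 d and 229.6, 172 and 161 CPM at the start. With total counts the median tested contig was also higher at 14 d than in each start library, by 0.427 to 0.545 on the log2 scale with 1 CPM added to both sides. This sum was set against the start without a test.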

How the results depend on the processing

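No paired analysis was possible because each time has 1 library and the labels give no replicate numbers. The 4 calls became 515 with total counts, 3087 with no filter, 1460 with DESeq2's Wald test, 72 with limma on log2(RPKM + 1), and 0 with limma-voom and with at least 5 CPM in 2 libraries (1509 at an unadjusted p under 0.05 in edgeR). Over the libraries left out they were 0 to 920. The 0 came without 0 h, 2 h or 6 h, where edgeR gave 6885, 3622 and 3763 contigs at an unadjusted p under 0.05. Where a single late library was left it is assumed to vary like the start libraries. Those called and at least 4-fold apart, also 4, became 515, 2871, 1310, 54, 0 and 0 in the same settings, and 0 to 912 over the libraries left out. The share of calls that were higher late, 100%, was 55.94% with no filter, 39.86% with DESeq2 and 36.15% (without 30 d) to 95.65% over the libraries left out that gave calls. DESeq2 size factors gave 4 calls, and so did all 10 libraries in 4 phases, of which 1 was among the main 4. contig100323 and contig175920 kept their direction in all 13 settings, and each missed the threshold in 6 of them (edgeR adjusted p = 0.0865 for both in the fit of all 10 libraries). contig066796 and contig005729 kept theirs in all 13 and passed in 5 and 3. The 24 contigs without start reads became 155 at 5 reads, 5 at 20 reads and 42 to 492 without 1 library, and the single contig without late reads 15, 0 and 1 to 52. The mean late-start correlation of 0.753 was 0.69 at a mean of at least 5 CPM, 0.473 over the 1000 most variable contigs and 0.723 to 0.782 without 1 library. The 20414 more contigs detected late were 14706 to 26122 without 1 library, and the 139.17 more contigs that held 50% of reads were 100.67 to 177.67. The lists of contigs apart 2-fold or 4-fold moved with the prior: at 0.1 and 5 CPM the 158 became 789 and 48, the 81 became 224 and 45, the 25 became 120 and 9, and the 4 became 19 and 0. Without 1 library the 158 became 198 to 1693 and the 81 became 114 to 556. For all of these moves the cause was not tested. Contigs of few reads are the most limited by depth.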
